A study of Mus musculus with 8 samples.

Results

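The genes described here are 7 genes known for their work in the trophoblast, the outer lineage of the early embryo that builds the placenta: Elf5, Eomes, Tfap2c, Ascl2, Hand1, Rhox6 and Plac1. They were chosen by name among the non-control probes of an Agilent whole mouse genome array, which carries 27827 gene names. Each had exactly 1 probe. Tfap2c appears in the files under its older name Tcfap2c and was matched through its RefSeq accession. The probes of 6 of the 7 genes were bright enough to be tested, and that of Eomes was not.

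The series compared messenger RNA of Cdx2 null mutant embryos with wild type embryos of the same strain, C57Bl6J/CBA, at 4/5 and at 7/8 somites. The tissue was the posterior end of the embryo, cut between the newest somite and the root of the allantois. Embryos were pooled, 20 for each genotype and stage, so the series had 4 pools, and the sources used here do not give the allele or how the null embryos were obtained. The null and wild type pools of a stage were hybridised together on 4 arrays with 2 colours, an original dye swap pair on 1 slide and a technical repeat of it on another. All values below are null over wild type, and a spread given for a stage is that of its 4 arrays, which carry the same RNA.

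Trophoblast stem cells are kept by a small circuit of transcription factors in which Cdx2, Eomes, Elf5 and Tfap2c act together. Ascl2 then serves the spongiotrophoblast and Hand1 drives giant cell formation. Rhox6, from an X-linked homeobox cluster, and Plac1, an X-linked gene for a secreted or membrane protein, are known for expression in the placenta. Most of these genes are also used by the embryo itself: Tfap2c in germ cells, ectoderm and neural crest, Hand1 in lateral mesoderm and heart, Eomes in the primitive streak, Rhox6 in germ cells and Elf5 in epithelia. In the posterior embryo Cdx2 has another known role, in the growth of the body axis.

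Over both stages, Elf5 and Rhox6 rose in the null pools, each by 0.52 on the log2 scale, which is 1.43-fold. Plac1 fell by 0.33. Tfap2c and Hand1 had positive ratios of 0.25 and 0.27 that did not pass the test, and Ascl2 had a ratio of -0.11 that did not pass it either. Eomes was not well above background on any array. The test was limma on 1 value per stage, fitted across all 21907 probes kept, and a gene was called where its Benjamini-Hochberg adjusted p did not exceed 0.05. So 2 of 6 tested genes rose and 1 of 6 fell. Of all probes kept, 8.42% were called, 4.94% higher and 3.48% lower in the null pools. The median ratio of the 6 genes was 0.26, against -0.01 for all probes kept. The genes, and the lists read below, were chosen with earlier results of these data known. Their counts and medians beside all probes are therefore no independent test.

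Cdx2 itself checks the labels. Its ratio lay between -1.34 and -1.10 on the 4 arrays of 4/5 somites and between -1.61 and -1.49 on those of 7/8 somites. The mean was -1.39 (SE 0.09, limma adjusted p = 1.65e-07), and the fall was there on 8 of 8 arrays. The Cdx2 signal of the null pools stayed well above background, and whether the probe lies in the altered part of the gene is unknown here. A single channel had 46.5% to 58.9% of its probes well above background. Ratios of array pairs that shared stage and dye order correlated across probes at r = 0.856 to 0.918. Pairs of 1 stage with swapped dyes had r = 0.477 to 0.516, and pairs of different stages with 1 dye order 0.498 to 0.591. Pairs that differed in both had r = 0.236 to 0.307 (probes are not independent replicates). Values are therefore given below for both dye orders.

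The stretches before the start sites of Elf5 and Plac1 are shown because both genes were called and a transcription factor is what the null embryos lack. Cdx proteins are known to bind AT-rich sites with the core TTTAT. That core was searched in the 250 bases before each RefSeq start (GRCm38.p6), on both strands, so that TTTAT or its reverse complement ATAAA counted. Of 32817 such stretches in the table, 37.3% held at least 1 match. Matches are in capitals below, and each stretch is written on the strand of its gene.
Elf5, first start, chr2:103411848-103412097, + strand: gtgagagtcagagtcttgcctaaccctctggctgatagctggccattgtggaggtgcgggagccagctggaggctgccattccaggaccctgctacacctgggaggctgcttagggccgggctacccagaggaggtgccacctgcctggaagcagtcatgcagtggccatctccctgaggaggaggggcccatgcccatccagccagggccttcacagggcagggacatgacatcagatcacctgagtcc
Elf5, second start, chr2:103423818-103424067, + strand: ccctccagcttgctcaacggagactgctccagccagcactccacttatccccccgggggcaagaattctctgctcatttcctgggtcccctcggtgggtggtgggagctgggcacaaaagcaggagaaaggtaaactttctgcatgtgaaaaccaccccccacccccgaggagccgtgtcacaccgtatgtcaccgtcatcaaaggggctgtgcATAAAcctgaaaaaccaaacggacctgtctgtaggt
Plac1, first listed start, chrX:53114406-53114655, minus strand: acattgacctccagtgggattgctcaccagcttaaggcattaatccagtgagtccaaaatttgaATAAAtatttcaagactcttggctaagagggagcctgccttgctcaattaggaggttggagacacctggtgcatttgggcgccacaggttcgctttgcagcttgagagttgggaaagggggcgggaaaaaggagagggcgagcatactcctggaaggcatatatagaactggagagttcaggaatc
Plac1, second listed start, chrX:53240111-53240360, minus strand: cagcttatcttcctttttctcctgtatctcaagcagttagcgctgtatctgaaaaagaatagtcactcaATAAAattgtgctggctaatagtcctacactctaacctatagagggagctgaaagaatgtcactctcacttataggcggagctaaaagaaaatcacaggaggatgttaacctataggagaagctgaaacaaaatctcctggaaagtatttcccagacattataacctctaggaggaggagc
The stretch before the first Elf5 start held no match, and the other 3 held 1 each, always as ATAAA. In Elf5 it was centred 34 bases before the second start, and in Plac1 184 and 179 bases before the 2 starts. The start sites of Ascl2 held none and that of Eomes held 1, so 4 of 6 starts of these 4 genes had the core. A match is a description of the letters and not a binding site. Which start the Elf5 and Plac1 transcripts of these pools came from was not measured.

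Elf5 encodes an ETS family transcription factor that keeps trophoblast stem cells in their state, and in the embryo proper its promoter is known to be shut by DNA methylation. Its probe lies at chr2:103290958-103291017 on the plus strand (mm9, as the files give it). At 4/5 somites the log2 ratio was 0.47 and 0.67 on the arrays with Cy3 on the null pool and 0.63 and 0.44 on those with Cy5. The later stage gave 0.60 and 0.72 with Cy3 on the null pool and 0.32 and 0.27 with Cy5. Every array was above 0, and at 7/8 somites the dye orders did not overlap. The stage means were 0.55 ± 0.11 and 0.48 ± 0.22 (SD of 4 technical arrays), and the mean of 0.52 had an SE of 0.08 over n = 2 stages (limma adjusted p = 0.000855). The probe was well above background in both genotypes on 8 of 8 arrays. On slide 1 the ratio was 0.51 and on slide 2 it was 0.53, both past the threshold. With the scanner's own background-subtracted signals it was 0.83, and without background correction it was 0.38 and no longer called (adjusted p = 0.0638).

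In normalised signal, on a log2 scale that compares pools for 1 probe but not probes with each other, Elf5 stood at 7.38 and 7.28 in the wild type pools of 4/5 and 7/8 somites. The null pools stood at 7.94 and 7.75. The lowest array of a null pool, 7.67, lay above the highest wild type array, 7.48. Arrays of a pool carry the same RNA, and how many of all probes were separated like this, whatever the size, was not counted. The same holds where arrays of other genes are said below not to overlap. Between the stages the wild type level differed by -0.11 and the null level by -0.18. The wild type difference lies near the SDs of the 4 arrays of its pools, 0.10 and 0.12. The null difference is larger than those of its pools, 0.08 and 0.10, and neither difference has a test.

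**Figure D1:**
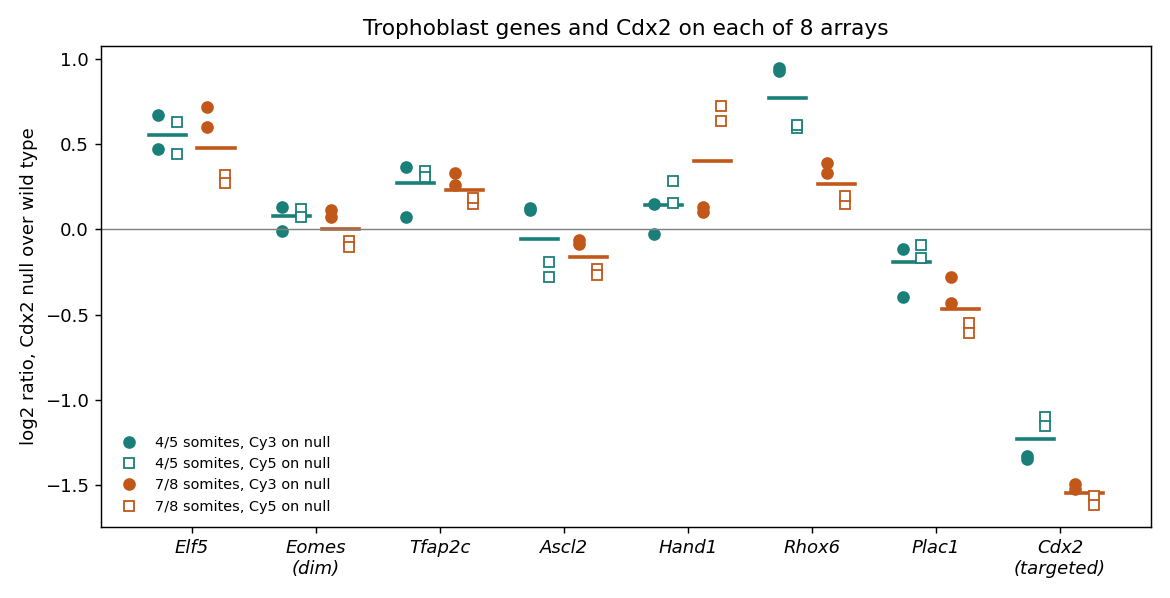
Log2 ratio of Cdx2 null over wild type (vertical axis) for the 7 trophoblast genes and Cdx2 on each of the 8 arrays, coloured by stage, with filled circles for Cy3 and open squares for Cy5 on the null pool and a line at the mean of a stage. Elf5 and Rhox6 lie above 0 and Plac1 below 0 on 8 of 8 arrays, Hand1 at 7/8 somites splits by dye order, and Cdx2 lies at -1.10 or lower throughout.

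Tfap2c encodes AP-2 gamma, a transcription factor needed in the trophectoderm and used in germ cells and ectoderm. Its probe lies at chr2:172383860-172383919 on the plus strand (mm9). The log2 ratio at 4/5 somites was 0.08 and 0.37 with Cy3 on the null pool and 0.34 and 0.31 with Cy5. The later stage gave 0.26 and 0.33 with Cy3 and 0.15 and 0.18 with Cy5. The ratio was positive on 8 of 8 arrays, as it was, in either direction, for 18.6% of all probes kept. The mean of 0.25 (SE 0.08) did not pass the test (limma adjusted p = 0.0810). Leaving out array 1 of 4/5 somites, which holds the value of 0.08, gave 0.29 with an adjusted p of 0.0401. Slide 1 alone gave 0.21 (adjusted p = 0.208) and slide 2 alone 0.30 (adjusted p = 0.0287).

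Tfap2c was lower at the later stage in both genotypes. The wild type level was 9.31 at 4/5 and 8.90 at 7/8 somites, and the null level 9.58 and 9.13. In the wild type the arrays of the 2 stages did not overlap, with 9.16 as the lowest at 4/5 and 8.97 as the highest at 7/8 somites. The difference was -0.41 in the wild type and -0.45 in the null, and with quantile normalisation over all channels it was -0.40 and -0.47. Each stage has 1 pool of a genotype, so this difference between stages has no test. None of the 6 genes differed between stages by 1.5-fold with no overlap of arrays. Among all probes kept, 0.635% were so much higher and 0.657% lower at 7/8 somites in the wild type, and 0.849% and 0.73% in the null.

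Eomes encodes a T-box factor of trophoblast stem cells and of the gastrulating embryo. Its probe at chr9:118394286-118394345 on the plus strand (mm9) was not well above background in either channel on any of the 8 arrays. The ratio on single arrays lay between -0.10 and 0.13, and the stage means were 0.08 at 4/5 and 0.00 at 7/8 somites. These ratios compare dim signals. When all 41174 probes were fitted without a filter on dim probes, its ratio was 0.04 (SE 0.05, limma adjusted p = 0.874).

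Ascl2 encodes a basic helix-loop-helix factor of the spongiotrophoblast and is an imprinted gene. Its probe lies at chr7:150154439-150154498 on the minus strand (mm9). At 4/5 somites the ratio was 0.13 and 0.11 with Cy3 on the null pool and -0.28 and -0.19 with Cy5. At 7/8 somites it was -0.09 and -0.06 with Cy3 and -0.23 and -0.27 with Cy5. At 4/5 somites the sign thus followed the dye order. The mean was -0.11 (SE 0.09, limma adjusted p = 0.534). The probe was dim, with levels of 6.81 to 6.97 in the 4 pools, and 1 of 4 wild type channels at 4/5 somites was not well above background.

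Hand1 encodes a basic helix-loop-helix factor that trophoblast giant cells need, and lateral mesoderm and the allantois use it too. Its probe lies at chr11:57642342-57642401 on the minus strand (mm9). At 4/5 somites the ratio was 0.15 and -0.03 with Cy3 on the null pool and 0.16 and 0.29 with Cy5. At 7/8 somites it was 0.10 and 0.13 with Cy3 but 0.73 and 0.64 with Cy5. These dye orders differed by 0.57 at 7/8 somites, more than the 95th percentile of that difference over all probes kept, which was 0.473. The mean of 0.27 (SE 0.09) did not pass the test (limma adjusted p = 0.0804). On the arrays with Cy3 on the null pool alone it was 0.09 (adjusted p = 0.636), and on those with Cy5 alone it was 0.45 (adjusted p = 0.0382).

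Rhox6 encodes a homeodomain protein of the reproductive homeobox cluster. Its probe lies at chrX:35182945-35183004 on the plus strand (mm9). At 4/5 somites the ratio was 0.93 and 0.95 with Cy3 on the null pool and 0.60 and 0.61 with Cy5. The arrays of 7/8 somites gave 0.33 and 0.39 with Cy3 and 0.15 and 0.20 with Cy5. All arrays were above 0, and every array of 4/5 somites lay above every array of 7/8 somites. The stage means were 0.77 ± 0.19 and 0.27 ± 0.11, and the mean of 0.52 had an SE of 0.11 (limma adjusted p = 0.00469). The ratios of the stages differed by -0.50, a difference that 1 pool per genotype and stage leaves untested.

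Rhox6 was the 1 gene of the 6 that was at least 1.5-fold higher in the null pool with the same sign on 4 of 4 arrays at 4/5 somites, where 1.07% of all probes kept did so. None of the 6 did so at 7/8 somites, where 1.21% of probes did, and none was as far lower in the null pool at either stage (0.954% and 0.927% of probes). With the scanner's processed signals the stage means of Elf5 passed 1.5-fold (0.92 at the earlier and 0.75 at the later stage), as did that of Plac1 at the later stage (-0.64). The deposited log ratios gave 0.91, 0.76 and -0.63. No gene of the 6 had opposite signs on all arrays of the 2 stages, as 3.88% of probes had. Its wild type level was 8.02 at 4/5 and 8.32 at 7/8 somites, whereas its null level was 8.79 and 8.59. The wild type arrays of the 2 stages overlapped at 4/5 array 2, which read 8.27. Slide 1 alone gave 0.50 and slide 2 alone 0.54, both past the threshold. The call was lost without array 2 of 4/5 somites (0.55, adjusted p = 0.0589), without background correction (0.44, adjusted p = 0.149), with uneven local backgrounds kept (0.42, adjusted p = 0.0573) and with no filter on dim probes (0.52, adjusted p = 0.141). It was also lost on the arrays with Cy5 on the null pool alone (0.39, adjusted p = 0.0601).

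Plac1 encodes a placental protein that normal placental growth needs. Its probe lies at chrX:50423681-50423740 on the minus strand (mm9). At 4/5 somites the ratio was -0.39 and -0.12 with Cy3 on the null pool and -0.17 and -0.09 with Cy5. The arrays of 7/8 somites gave -0.43 and -0.28 with Cy3 and -0.55 and -0.61 with Cy5. It was below 0 on 8 of 8 arrays. The stage means were -0.19 ± 0.14 and -0.47 ± 0.15, and the mean of -0.33 (SE 0.09) passed the test narrowly (limma adjusted p = 0.0333). Its level was 8.45 and 8.53 in the wild type pools and 8.26 and 8.07 in the null pools. At 7/8 somites the highest null array, 8.17, lay below the lowest wild type array, 8.45, whereas the arrays of 4/5 somites overlapped.

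The call for Plac1 held in 6 of 21 other settings and its direction in 21 of 21. The ratio was -0.38 on slide 1 (limma adjusted p = 0.0143) and -0.27 on slide 2 (adjusted p = 0.0612). Leaving out 1 array moved it between -0.36 and -0.29, and the call was lost without any one of the 4 arrays of 7/8 somites or without array 2 or array 4 of 4/5 somites.

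**Figure D2:**
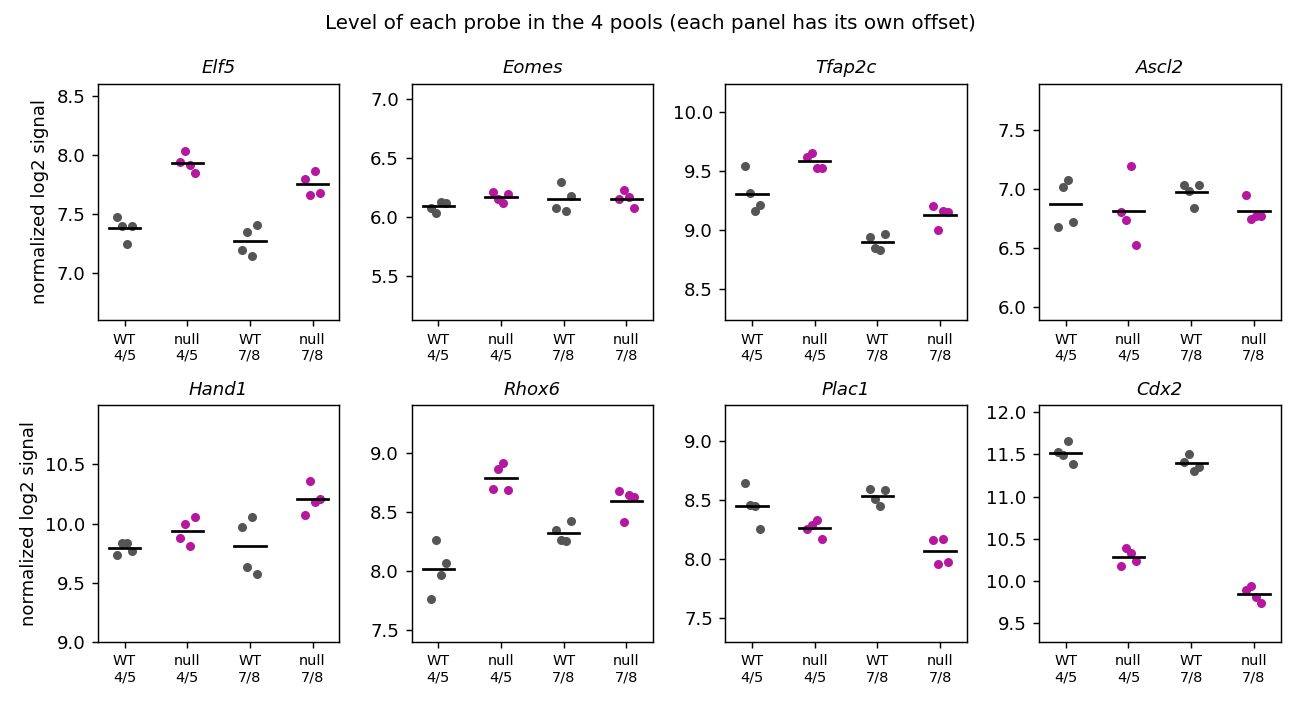
Normalised log2 signal (vertical axis, 1 panel a probe, the same span in each panel except the wider one of Cdx2) in the wild type (grey) and null (magenta) pools of 4/5 and 7/8 somites, with 4 technical arrays as points and their mean as a line. Elf5 lies higher in both null pools, Rhox6 separates the genotypes more widely at 4/5 somites, Tfap2c is lower at 7/8 somites in both genotypes, and Eomes is not well above background in any pool.

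The genes whose 4 pool levels, centred on their mean, lay nearest to those of the called genes were searched among 11003 named genes that were well above background in all 4 pools. Nearest to Elf5 were Arrdc4, with a root mean square difference of 0.02 on the log2 scale, Tmcc3 and Trim16. Rhox6 had no such close companion: Gpr137b was nearest at 0.06, followed by Sc5d and Smc4. Nearest to Plac1 were Cxadr at 0.01, Vdac1 and Acads. With 4 pools, such likeness describes a shape of 4 points only.

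A wider list of 35 other trophoblast genes was read in the same fit. The array had probes named for 31 of them, and 20 were bright enough to be tested. Of these 20, 7 rose and 1 fell, with a median ratio of 0.15. Of all probes kept, 8.42% were called. In a fit with 1 probe per gene name, 1641 of 15305 were called. Since a gene may enter through the pool in which it is high, the count covers the genes that passed this limit and not the list. The sum of the signals of the 20 genes was 15.50 in the wild type and 15.77 in the null pool at 4/5 somites, and 15.30 and 15.43 at 7/8 somites (log2). Such a sum follows its brightest probes: Phlda2 and Rhox5 made up 69.4% to 78.6% of it. For the lists of other cell types given next, the 2 brightest probes made up 54.4% of a sum or more.

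Among genes of the stem cell state, 8 were tested, of which 3 rose and 1 fell. The other 4 did not pass: Gata2 had a ratio of -0.19, Tead4 0.00, Klf5 0.05 and Id2 0.15. Gata2 was below 0 on 8 of 8 arrays, and dimmer second probes of Gata2 and Id2 had 0.01 and -0.02. Fgfr2, the receptor for the FGF signal that trophoblast stem cells depend on, rose by 0.93 (SE 0.08, limma adjusted p = 2.78e-06), and a dimmer second probe of it rose by 0.40. Sfmbt2, an imprinted Polycomb gene, rose by 0.51 (SE 0.09, adjusted p = 0.00190). Its ratio was 0.66 at 4/5 and 0.36 at 7/8 somites. Gata3, which was not among the 6 largest by rule but is the third riser of this group, rose by 0.31 (adjusted p = 0.0326). That call did not hold in 13 of the 21 settings. Ets2, an ETS factor needed in trophoblast, fell by 0.42 (SE 0.08, adjusted p = 0.00437), and its stage values were -0.46 and -0.38.

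None of the 4 tested genes of the ectoplacental cone and spongiotrophoblast passed the test. Tpbpa, the defining gene of the spongiotrophoblast, was not well above background on any array. Of 3 tested giant cell genes, Prl3d1, placental lactogen I, rose by 0.58 (SE 0.10, limma adjusted p = 0.00103). Its ratio was 0.39 ± 0.10 at 4/5 and 0.77 ± 0.20 at 7/8 somites. It was well above background in both genotypes on 8 of 8 arrays. The other giant cell genes measured, Prl3b1 and Mmp9, had ratios of -0.04 and -0.02.

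Of 2 tested labyrinth genes, Wnt2, a Wnt ligand of the labyrinth and the allantois, rose by 1.12 (SE 0.08, limma adjusted p = 4.88e-07), or 2.17-fold. The ratio was 1.16 at the earlier and 1.08 at the later stage. Gcm1, the defining gene of the branching labyrinth, was not well above background on any array. Rhox9 and Rhox5, from the same homeobox cluster as Rhox6, rose by 0.45 (adjusted p = 0.00347) and 0.38 (adjusted p = 0.0110), calls lost in 2 and 5 of 21 settings. Rhox9 had 0.55 ± 0.10 at 4/5 and 0.35 ± 0.10 at 7/8 somites, and Rhox5 had 0.45 ± 0.01 and 0.31 ± 0.24. So all 3 Rhox genes of the lists had larger mean ratios at 4/5 somites. For Rhox5, named after its values were seen, the difference lies within the SD of the arrays of 7/8 somites. None of these differences has a test.

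**Figure D3:**
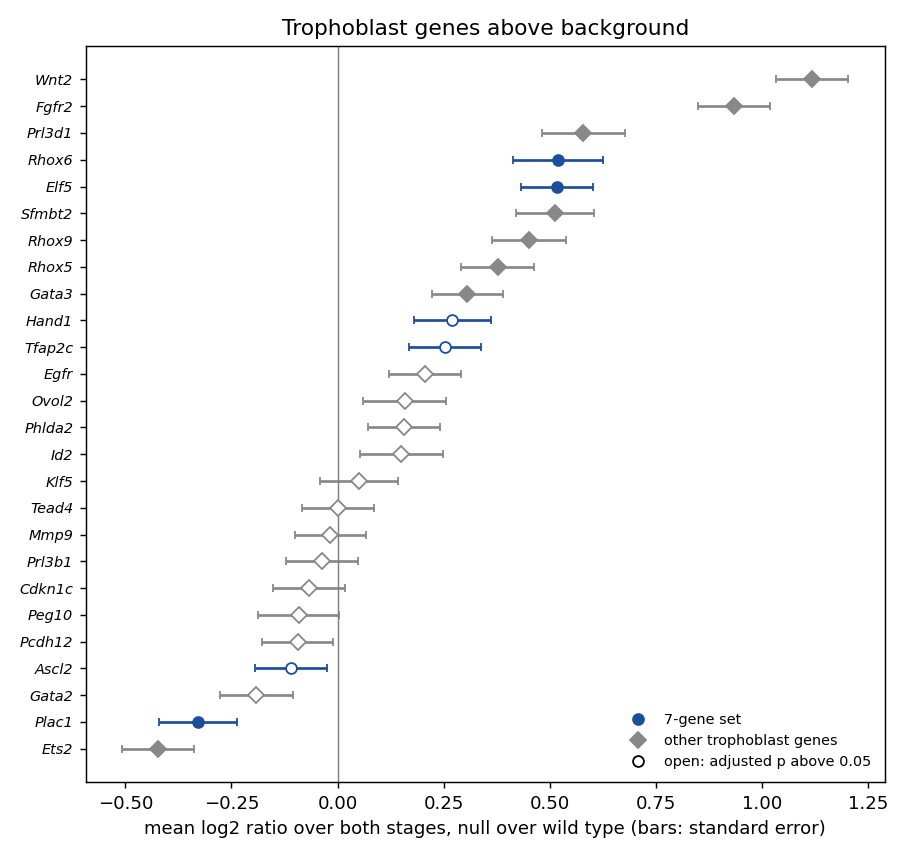
Mean log2 ratio of null over wild type over both stages (horizontal axis, bars are the SE of the fit over n = 2 stages) for the 6 tested genes of the set (blue circles) and the 20 other trophoblast genes tested (grey diamonds), filled where the adjusted p was at most 0.05. Wnt2 at 1.12 and Fgfr2 at 0.93 stand above Elf5 and Rhox6 at 0.52, and Plac1 at -0.33 and Ets2 at -0.42 are the filled points below 0.

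The posterior tissue can hold cells next to it, so lists of markers for 6 other cell types were read in the same way. Beside their counts stands the same share of 8.42% called among all probes kept, 4.94% higher and 3.48% lower. In bulk tissue, fewer cells of a type and less RNA per cell cannot be told apart. Of 8 tested germ cell markers, 3 rose and none fell. Dppa3, the defining gene of early germ cells, rose by 0.84 (SE 0.09, limma adjusted p = 1.09e-05), from 0.93 at the earlier and 0.75 at the later stage. Alpl rose by 0.34 and Ddx4 by 0.31, calls lost in 11 and 9 of 21 settings. The other 5 tested markers did not pass: Prdm1 had a ratio of 0.10, Ifitm3 0.07, Dnd1 0.01, Pou5f1 -0.10 and Kit -0.25. Kit was below 0 on 8 of 8 arrays, and the median of the list was 0.08. The count of 3 fell to 1 without array 2 of 4/5 somites, without array 2 or array 4 of 7/8 somites and with median centring, among others. The sum of the germ cell list was 11.89 in the wild type and 12.03 in the null pool at 4/5 somites, and 11.93 and 12.09 at 7/8 somites (log2). Tfap2c and Rhox6 are known in germ cells as well, and the part of that cell type in their ratios was not tested.

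Of 14 visceral endoderm markers, all of them tested, 6 rose and none fell. Cubn and Amn, which form an uptake receptor of that epithelium, rose by 1.18 and 0.97, Apoe by 0.96 and Dab2 by 0.69. A second probe of Dab2 had a ratio of 0.21 that did not pass. Among the 6, the call for Apoa1 was lost in 16 of 21 settings. Ttr, the defining gene, had a ratio of 0.15 that did not pass (limma adjusted p = 0.387). Afp, a bright marker of this list, turned with stage: its ratio was 0.48 at 4/5 and -0.82 at 7/8 somites, and its mean did not pass (limma adjusted p = 0.688). The summed signal was 15.19 in the wild type and 15.78 in the null pool at 4/5 somites, and 14.54 and 15.04 at 7/8 somites (log2). Of 9 tested surface ectoderm markers, 4 rose and none fell: Krt5 by 0.92, Wnt6 by 0.61, Epcam by 0.41 and Grhl2 by 0.34, the last a call lost in 8 of 21 settings. Trp63, the defining gene, had a ratio of -0.12. The summed signal of this list was 12.76 and 13.12 at 4/5 somites and 12.77 and 13.30 at 7/8 somites, wild type before null. Elf5 and Tfap2c are known in epithelia, and the part of either tissue in their ratios was not tested.

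Among 8 tested markers of lateral plate and allantois, 1 rose and 2 fell. Kdr fell by 0.88 and Bmp4 by 0.49, whereas Postn rose by 0.44, a call lost in 13 of 21 settings. Foxf1, the defining gene, had a ratio of -0.03. The summed signal was 13.10 and 12.60 at 4/5 somites and 12.97 and 12.90 at 7/8 somites, wild type before null. Hand1 shares this tissue and had a positive ratio. Of 12 primitive streak markers, Mesp1 rose by 0.89 and Msgn1 fell by 0.60, whereas T had a ratio of -0.34 that did not pass (limma adjusted p = 0.0657). The stages of T differed, with -0.61 at 4/5 and -0.07 at 7/8 somites. The median of the list was -0.29 at 4/5 and 0.11 at 7/8 somites, and such differences have no test. The summed signal was 14.85 in the wild type and 14.53 in the null pool at 4/5 somites, and 14.62 and 14.76 at 7/8 somites.

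Of 7 genes of the decidua and maternal blood, 4 were tested and 1 rose. Prl8a2, the defining gene of the decidua, entered the test through the null pools alone. It was well above background there on 4 of 4 arrays at 4/5 and on 3 of 4 at 7/8 somites, against 2 and 0 of 4 in the wild type. The null level at 7/8 somites was at least 1.25-fold higher, a bound set against the lowest signal that counts as well above background. Since the gene entered through the pools in which it is high, its call over both stages is no independent test. Its fitted ratio ran from 0.31 to 2.05 over the other settings and gives no size. Pgr, Esr1 and Ptprc were not well above background in the tissue. The other 3 tested genes did not pass: Hbb-b1 had a ratio of -0.24, Lyve1 -0.32 and Des 0.18. Hbb-b1 was below 0 on 8 of 8 arrays, and Lyve1 entered the test through the wild type pool of 7/8 somites alone. The median ratio of the tested genes of this list was -0.03. The summed signal was 9.51 and 9.44 at 4/5 somites and 9.33 and 9.28 at 7/8 somites, wild type before null. Prl3d1 and Prl8a2 belong to 1 gene family, and the part of adhering placental or maternal tissue in the values of the trophoblast genes was not tested.

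**Figure D4:**
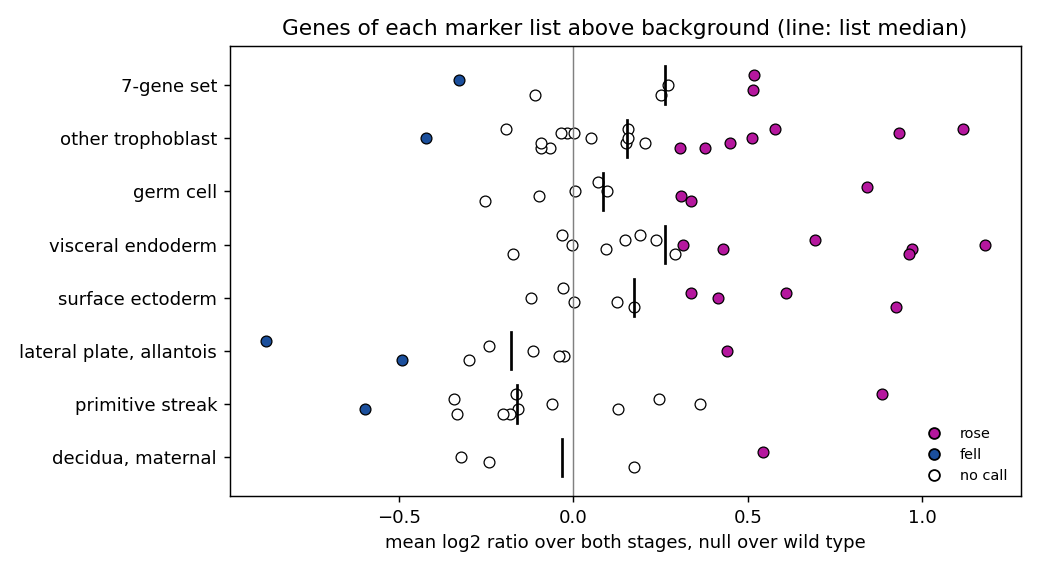
Mean log2 ratio of null over wild type over both stages (horizontal axis) for the tested genes of the 7-gene set and of 7 further lists, 1 row a list, filled magenta where a gene rose and blue where it fell, with a line at the median of the list. The medians run from -0.18 for lateral plate and allantois to 0.26 for the 7-gene set and the visceral endoderm.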

How the data were processed

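Messenger RNA of 4 pools, 20 embryos each, was measured on 8 arrays with 2 colours from 300 ng of RNA, per the labels' protocols. The deposited scanner files give spot and background intensity, not normalized, per the file headers. The deposited series matrix gives log10 ratios, which were read as null over wild type on every array. Agilent Feature Extraction is given as 9.5.3 in the submitters' processing notes and as 10.5.1.1 in the file header.

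Mean signals were corrected with normexp (offset 50) in limma 3.58.1 (R 4.3.3, with data.table, version 1.17.8), where 167 spots with uneven local background received their array's median, then normalized by loess within arrays, control spots at weight 0. Outlier spots (1184, 0.341%) were dropped, none of them of a member, and no non-control spot was saturated. Repeat spots were averaged by probe. The test covered 21907 of 41174 probes, those well above background in 1 genotype on at least 3 of 4 arrays of a stage. The 4 arrays of a stage share 2 pools and count as 1 replicate. The lmFit and eBayes test (two-sided) had n = 2 stages, 1 residual degree of freedom and 14.92 prior ones, and a spread estimated over all probes carries most of the weight. Within a stage there is no test. Levels are channel values after loess and Aquantile. For a gene with several probes the brightest stands. Tested on simulated data, the fit recovered sizes and directions but made more false calls than its nominal share, since the prior degrees of freedom are loosely estimated.

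Named genes are the 7 members, Cdx2, the called genes with the largest ratios of each list (up to 6 trophoblast, 4 other), fixed defining markers and the 3 nearest genes of each called member. Rhox5, Gata3, Prl3b1, Mmp9, Apoa1, Afp, Pgr, Esr1, Ptprc and the genes of opposite sign between stages were named after their values were seen. So were the tested genes without a call in the stem cell group, in the germ cell list and in the list of decidua and maternal blood. Members and lists were chosen with earlier results of these data known. Promoters are RefSeq's (GRCm38.p6), which listed 4 of the 7 genes. Alternatives changed the background correction, normalization, filters, probe choice, slides, dye orders and arrays used.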

Additional observations from a re-analysis of the deposited data

Results flagged for a closer look

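Of the tested genes of all lists, 5 had opposite signs on all 4 arrays of each stage, as 3.88% of all probes kept had. The search covered Cdx2, 6 genes of the set, 20 other trophoblast, 8 germ cell and 8 lateral plate and allantois genes. It also covered 14 genes of visceral endoderm, 9 of surface ectoderm, 12 of primitive streak and 4 of decidua and maternal blood. Whether 5 exceeds the share of all probes was not tested. None of the 5 was among the 7 trophoblast genes, and the difference between stages was not tested. Afp, of the visceral endoderm, went from 0.41 to 0.55 on the arrays of 4/5 somites to -0.92 to -0.74 on those of 7/8 somites, a difference of -1.30 in log2 ratio. Msx1 and Msx2, of the lateral plate and allantois, differed by 0.78 and 0.13 between stages, and Mixl1 and Tbx6, of the primitive streak, by 0.60 and 0.53, each from below 0 at 4/5 to above 0 at 7/8 somites. For Msx1 this is the brightest probe. A dimmer second probe had -0.15 at 4/5 and 0.01 at 7/8 somites, a difference of 0.16. No array of the 7 genes or Cdx2 passed the Dixon outlier rule, which sets the gap to the next array against the range of the stage. The lowest arrays of Tfap2c and Plac1 at 4/5 somites came nearest, with gaps of 0.80 and 0.74 of the range.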

How the results depend on the processing

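Counts and ratios over both stages were recomputed in 21 settings, ratios at each stage in 14 and level differences between stages in 1, quantile normalization. Of the 21, 2 (the arrays of 1 dye order alone) were chosen after seeing the data. Of the 3 calls, Elf5 held in 20, Rhox6 in 16 and Plac1 in 6. The 3 members called became 0 without background correction, 1 with uneven local backgrounds kept and 1 with no filter on dim probes. The other trophoblast genes called, 8, became 2 without background correction and 3 with no filter. The markers of other cell types called, 19, became 8 without background correction, 12 with median centring and 12 with no filter. Taking the slide as a block called 6 members, 16 trophoblast genes, 48 markers and 13861 of 21907 probes, since its units are technical repeats of the same pools. Leaving out 1 array gave 1 to 4 members (1 without array 2 of 4/5 somites), 7 to 8 trophoblast genes and 14 to 23 markers. Over all probes, 1845 calls became 345 without background correction, 664 with no filter, 765 with median centring and 812 with uneven backgrounds kept, and 942 without array 2 of 4/5 somites. The causes were not tested. Ascl2 changed sign, to 0.0223, on the arrays with Cy3 on the null pool alone. No paired analysis was possible because replicate numbers name technical arrays of the same pools; null is set against wild type within each stage in the main test already. Low signal limits Eomes, which was not well above background, and Ascl2. With 1 pool per genotype and stage, p-values rest mostly on a spread between 2 stages estimated over all probes. The gene's own spread between stages enters them little. Either spread may include technical spread and change between stages.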
